A study of Mus musculus with 24 samples.

Results

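The response to doxycycline (Dox) of 4320 gene sets was compared between periosteal cells that carry an inducible, constitutively active YAP (YAPCA) and wild-type periosteal cells. The authors deposited a table of gene set scores for each genotype, with a score per set and sample, and every set found in both tables was taken. The YAPCA table holds 4320 sets, all shared, and the wild-type table holds 4333, of which 13 have no partner. For each set the mean score of the 3 untreated samples was subtracted from that of the 3 Dox samples in each genotype, and the wild-type difference was then subtracted from the YAPCA difference.

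The 12 RNA-seq samples scored are part of a series of 24, the others being ATAC-seq, and fall into 4 groups of 3. YAPCA cells came from mice with 3 alleles. The Cre driver B6.C-tg(CMV-Cre)1Cgn/J is active in most tissues, the activator allele Gt(ROSA)26Sortm1(rtTA,EGFP)Nagy/J makes a Dox-dependent transcription factor with EGFP, and the responder tetO-YAPS127A makes YAP with the S127A change when Dox is present. YAPCA cells were given 1 μM Dox or left untreated, and wild-type C57BL6 cells were likewise given 1 μM Dox or left untreated. All were cultured primary periosteal cells, and the labels name no vehicle for the untreated cells. The wild-type cells also differ from YAPCA cells in carrying neither Cre, nor the activator, nor EGFP, and the labels give neither the animals' age nor the length of Dox exposure. Samples within a group are labelled technical replicates. Their p-values therefore measure the spread among such samples alone, and that spread may be technical.

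YAP is a transcriptional co-activator that enters the nucleus and binds TEAD factors unless the Hippo kinases phosphorylate it, and replacing its main phosphorylated serine by alanine frees it from that restraint. In connective tissue cells it is known to respond to tension carried by RHOA, ROCK and actin, to raise genes such as Ctgf and Cyr61, and to act on growth, matrix and bone-forming genes. A gene set score condenses the genes of a pathway or published signature into a single value per sample that is high where those genes rank high. The set names used here are those of public curated collections: Reactome, WikiPathways, KEGG, PID and BioCarta pathways, and signatures named after a study's first author and ending in UP or DN for genes that rose or fell there.

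The deposited scores run between -1 and 1 and carry no unit. Within each table the scores of a set averaged close to 0 over its 6 samples: the SD of these averages was 0.0179 in the YAPCA table and 0.0223 in the wild-type table, against an SD of 0.194 and 0.210 over all scores. Each genotype was therefore scored on its own, a level cannot be compared across the tables, and the difference between the genotypes' Dox effects is given here as a description with no test of its own. Sets share genes, so counts of sets are not counts of independent events.

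The libraries of YAPCA cells held 16351900 to 28734600 reads counted over genes. The table of wild-type RNA values holds 98 genes, which leaves the total depth of the wild-type libraries unknown. In its low values a single read was worth 1.67 normalised read counts in untreated replicate 2 and 0.829 to 0.991 in the other 5, so that library was the shallowest. In YAPCA cells the scores of 2 samples of the same group correlated across sets at 0.0849 to 0.477, and those of samples of different groups at -0.602 to -0.193. In wild-type cells the ranges were -0.314 to 0.329 within groups and -0.548 to -0.00643 between groups, so the wild-type groups stood less clearly apart. Leaving out wild-type untreated replicate 3 turned the sign of the wild-type Dox effect in 16.1% of sets, the highest share for any wild-type sample. Yap1 itself had 4732, 4766 and 4896 normalised read counts in YAPCA cells with Dox and 5134, 4945 and 5042 in untreated YAPCA cells, so Dox did not raise it detectably (log2 change -0.07 ± 0.028, SE; limma, adjusted p = 0.0697). It is not stated whether transgene reads count towards Yap1. All 6 periosteal mesenchyme markers looked for were expressed in YAPCA cells, where Pdgfra, Prrx1, Postn and Col1a1 fell with Dox. The epithelial markers Epcam, Cdh1 and Krt8 and the blood markers Ptprc and Adgre1 stayed below 4 normalised read counts in every YAPCA sample. The third blood marker, Cd68, had 37.0 to 53.2 and did not pass. Of the endothelial markers Kdr had 19.99 to 40.5, Cdh5 3.38 to 16.7 and Pecam1 1.60 to 6.76 normalised read counts, and the pair tested, Kdr and Cdh5, did not pass. The chondrocyte markers Col2a1 and Sox9 had 2580 to 3055 and 251.9 to 463.9 normalised read counts in YAPCA cells, and both fell with Dox. The third, Acan, had 14.07 to 38.92 and did not pass. Of 3 muscle markers 1 was tested, and it did not pass. In these bulk samples, fewer cells of a type and less RNA per cell cannot be told apart.

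In YAPCA cells Dox raised the scores of several sets on ribosomal RNA modification, nuclear pores and splicing and lowered those of several on glycosaminoglycan breakdown, lysosomes, extracellular matrix and RHOA-ROCK signatures. A total of 428 of 4320 sets passed the threshold (9.91%; limma, Benjamini-Hochberg adjusted p below 0.05), of which 220 rose (5.09%) and 208 fell (4.81%). The median Dox effect of those that rose was 0.515 score units and that of those that fell was -0.505, beside -0.0177 over all 4320 sets. In wild-type cells none of 4333 sets passed (0%), the smallest adjusted p was 0.155, and 547 sets had an unadjusted p below 0.05 (12.6%), 432 of them higher with Dox and 115 lower. The count in YAPCA cells rests on few samples: it was 89 without Dox replicate 1, 66 without Dox replicate 2, 232 without untreated replicate 1 and 178 without untreated replicate 2. All 428 kept their sign under each of the 6 omissions, while 59 passed in every omission, 295 passed in 3 or fewer and 39 in none. Dox replicate 3 stood apart on interferon-induced genes: Ifit1, an antiviral RNA-binding protein, had 76.0, 98.8 and 812 normalised read counts with Dox, against 146, 132 and 179 untreated. Usp18, which removes the ubiquitin-like ISG15, had 88.7, 131 and 801 with Dox, against 141, 166 and 158 untreated. The median YAPCA effect of 28 interferon sets was 0.00032 with all samples and -0.207 without Dox replicate 3, and 473 sets passed without that replicate.

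Sets that passed in YAPCA cells had wild-type effects on both sides of 0. The 220 sets that rose in YAPCA cells had a median wild-type effect of -0.00444, with 109 positive and 111 negative. The 208 that fell had a median wild-type effect of 0.101, with 143 positive and 65 negative, beside 61.2% positive over all shared sets. In 132 sets (3.06%) the Dox and untreated scores did not overlap in either genotype and the directions were opposite, with 97 lower in YAPCA cells and higher in wild-type cells, and 35 the other way. In 40 sets (0.926%) neither genotype's groups overlapped and the directions were the same, 20 up and 20 down. Taken singly, no overlap was seen upwards in 639 sets (14.8%) and downwards in 727 (16.8%) in YAPCA cells, against 545 (12.6%) and 181 (4.18%) in the wild-type table. Whether 132 opposite sets exceed what these single shares would give in unrelated genotypes was not tested. The count of 132 was 211 without YAPCA Dox replicate 3, 241 without YAPCA untreated replicate 1, 199 and 251 without wild-type Dox replicates 1 and 2, and 246 and 215 without wild-type untreated replicates 1 and 2, fewer samples being easier to separate. Across the 4320 sets the effects correlated at r = -0.122 (rho = -0.131), a description over sets that share genes and samples.

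**Figure D1:**
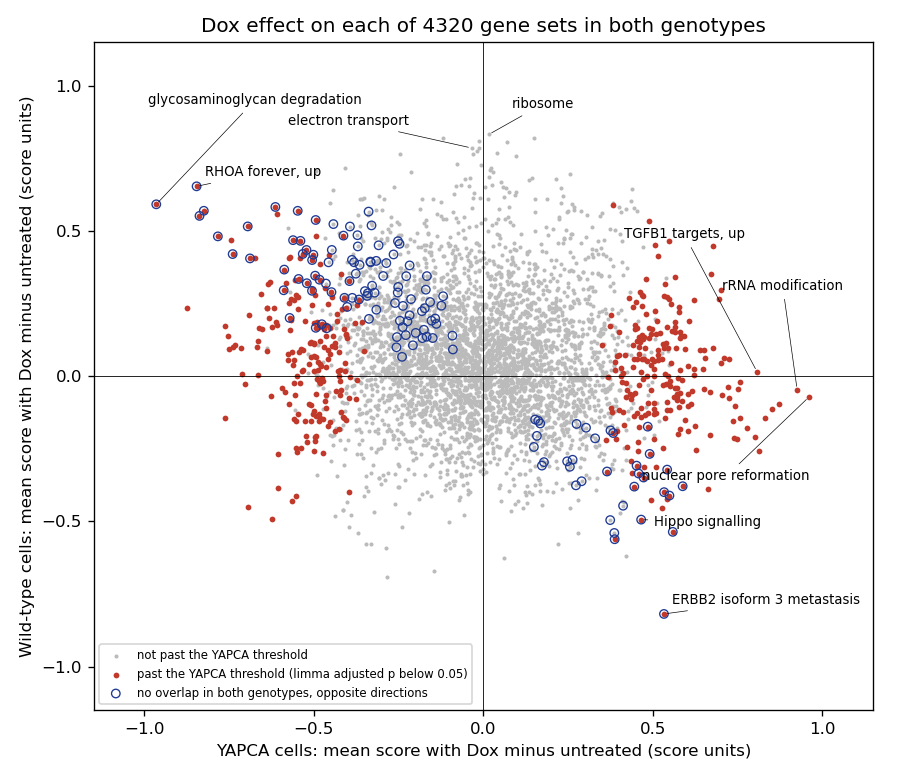
Dox effect (mean score with Dox minus mean score untreated, score units) of each of the 4320 shared gene sets in YAPCA cells (x axis) and wild-type cells (y axis). Red points are the 428 sets past the threshold in YAPCA cells, and blue rings are the 132 sets whose groups did not overlap in either genotype and moved in opposite directions, most of them at the upper left.

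The set with the highest Dox effect in YAPCA cells was Reactome's set for the rebuilding of nuclear pore complexes after mitosis, the channels through which RNA and protein cross the nuclear envelope. Its scores were 0.452, 0.522 and 0.478 in YAPCA cells with Dox, against -0.405, -0.554 and -0.471 in untreated YAPCA cells. The difference was 0.961 ± 0.101 score units (SE; limma, adjusted p = 0.00506). The YAPCA groups were far apart and tight. In wild-type cells the scores were -0.505, 0.322 and -0.00288 with Dox, against -0.227, -0.194 and 0.451 untreated, a difference of -0.0721 ± 0.227 with groups that overlapped (limma, adjusted p = 0.956). All 3 sets named for nuclear pores and transport rose in YAPCA cells, by a median of 0.853, with a wild-type median of -0.0721. Further Reactome sets built largely from nucleoporin genes rose too: the interactions of the viral protein Rev with host proteins by 0.874, the export of SLBP-dependent histone mRNA by 0.830, and the regulation of glucokinase by its nuclear-held regulatory protein by 0.803.

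The values of single nucleoporin genes come from the same libraries as the scores. Like those of the later gene lists, they show what lies under a score and are not separate support. Of 28 nucleoporin and pore genes tested in YAPCA cells, a list drawn up after the set scores were seen, 12 rose and 0 fell, with a median log2 change of 0.09, beside 14.3% rising and 13.5% falling and a median of 0.00 among all 13477 genes tested. Nup153, a basket nucleoporin on the nuclear side of the pore, had 3198, 3111 and 3151 normalised read counts with Dox, against 2872, 2835 and 2613 untreated. Its log2 change was 0.19 ± 0.036 (SE; limma, adjusted p = 0.00105), and no sample of one group reached into the other. Nup54, of the central channel, and Nup35 and Nup160, of the pore's scaffold, had log2 changes of 0.21, 0.21 and 0.17, and all 3 passed.

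Close behind stood Reactome's set for the modification of ribosomal RNA in the nucleus and cytosol, the step in which snoRNA-guided enzymes methylate and pseudouridylate the precursor of the ribosome. It scored 0.590, 0.512 and 0.246 in YAPCA cells with Dox, against -0.544, -0.352 and -0.536 in untreated YAPCA cells, a difference of 0.927 ± 0.122 (SE; limma, adjusted p = 0.00506). Dox replicate 3 was the lowest of its group but still far above the untreated samples. The wild-type difference was -0.0462 ± 0.205, with overlapping groups. Of 23 genes of rRNA modification and processing, also listed after the scores were seen, 18 rose and 0 fell in YAPCA cells, with a median log2 change of 0.18.

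Nop58, a core protein of the box C/D particles that guide methylation, had 4970, 4951 and 4923 normalised read counts with Dox, against 3756, 3630 and 3586 untreated, a log2 change of 0.44 ± 0.028 (SE; limma, adjusted p = 1.26e-08). Its partner Nop56 had 3612, 3818 and 3587 with Dox, against 2843, 2911 and 2852 untreated, a log2 change of 0.36 ± 0.032 (SE; limma, adjusted p = 4.43e-07). The groups of neither gene overlapped. Dkc1, the pseudouridine synthase of box H/ACA particles, and Wdr43, a factor of small-subunit assembly, rose by 0.31 and 0.32 on the log2 scale.

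The cytosolic ribosomal proteins themselves behaved differently from the enzymes that modify their RNA. KEGG's ribosome set scored 0.244, 0.110 and -0.210 in YAPCA cells with Dox, against -0.649, 0.275 and 0.469 in untreated YAPCA cells, a difference of 0.0163 ± 0.246 (limma, adjusted p = 0.973). The untreated samples alone spanned more than the Dox samples, and the groups overlapped. Of 81 ribosomal protein genes tested in YAPCA cells 2 rose and 3 fell, with a median log2 change of -0.0002. Among all 19 sets on ribosomes, rRNA and translation, 4 rose and 0 fell in YAPCA cells, and the 4 are on rRNA: modification, processing, and a pair on its transcription, the B-WICH chromatin complex and positive epigenetic regulation. The call of the last was lost in each of the 6 omissions.

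Part of the splicing sets rose as well. Of 9 sets named for splicing or RNA processing 4 rose and 0 fell in YAPCA cells, with a median of 0.387, against a wild-type median of -0.0123. The effect was negative in 4 of the 9, down to -0.242, and none of these passed. KEGG's spliceosome, the set of the small nuclear ribonucleoproteins that remove introns, scored 0.374, 0.388 and 0.169 in YAPCA cells with Dox, against -0.317, -0.252 and -0.367 in untreated YAPCA cells. The difference of 0.623 ± 0.108 (SE; limma, adjusted p = 0.0101) passed, though no longer without Dox replicate 2, and stood beside a wild-type difference of 0.0246 ± 0.170.

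Single sets of growth metabolism also rose in YAPCA cells. KEGG's one-carbon pool by folate, which supplies carbon units for nucleotide synthesis, rose by 0.663 ± 0.127, against a wild-type effect of -0.388 ± 0.180 that did not pass (limma, adjusted p = 0.0141 and 0.401). The YAPCA call was lost without Dox replicate 1 or 2. Reactome's cholesterol biosynthesis set scored 0.145, 0.320 and 0.393 in YAPCA cells with Dox, against -0.267, -0.494 and -0.125 in untreated YAPCA cells, a rise of 0.581 ± 0.125 (SE; limma, adjusted p = 0.0203) with no overlap. The call was lost without Dox replicate 2 or untreated replicate 2, and its wild-type effect was -0.182. It was the single riser among 16 sets on cholesterol and fatty acid synthesis, of which 2 fell and whose median was -0.212. Of 15 sterol and fatty acid genes tested 5 rose, among them Fdps, which makes farnesyl diphosphate, by 0.21 on the log2 scale, while the desaturases Scd1 and Scd2 fell by 0.21 and 0.43.

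Of 83 sets on the cell cycle and DNA replication 6 rose and 1 fell in YAPCA cells, a share of risers near the 5.09% of all sets, with a median of 0.152, against 0.0569 in wild-type cells. They include the nuclear pore set above, G1/S-specific transcription (0.565), SUMOylation of DNA replication proteins (0.531) and E2F-driven replication (0.487), and the last 3 calls were kept in 5, 4 and 2 of the 6 omissions. The set that fell, FOXO-driven cell cycle genes (-0.574), includes genes that restrain the cycle. Among 17 cell cycle genes tested 5 rose and 2 fell: the ribonucleotide reductase subunits Rrm2 and Rrm1 rose by 0.22 and 0.17 on the log2 scale, and Cenpf, a kinetochore protein of late cycle, fell by 0.22.

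**Figure D2:**
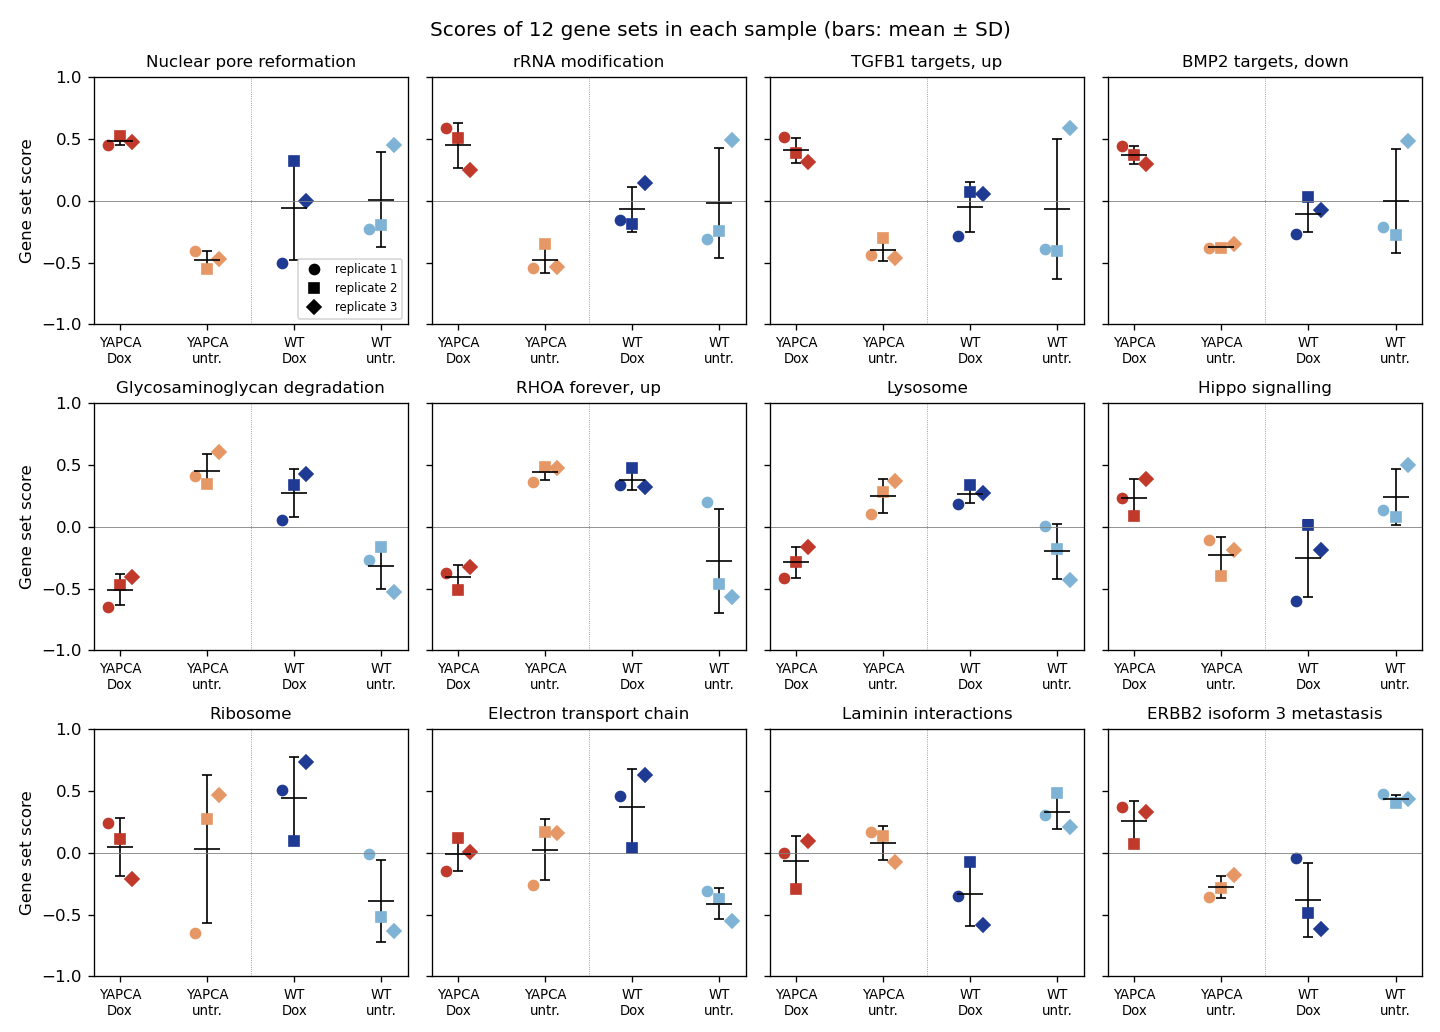
Deposited score (y axis, score units) of 12 gene sets in each of the 12 samples, with YAPCA groups left of wild-type groups and Dox left of untreated; symbols are replicates, and bars are group means ± SD. The YAPCA groups are apart in the upper 2 rows, while ribosome, electron transport and laminin sets separate in wild-type cells and overlap in YAPCA cells.

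The lowest Dox effect in YAPCA cells, and the lowest difference between the genotypes, belonged to the WikiPathways set for glycosaminoglycan degradation, the lysosomal breakdown of the long sugar chains of matrix proteoglycans. It scored -0.650, -0.471 and -0.408 in YAPCA cells with Dox, against 0.413, 0.345 and 0.609 in untreated YAPCA cells. In wild-type cells it scored 0.0554, 0.338 and 0.428 with Dox, against -0.267, -0.161 and -0.526 untreated. Every YAPCA sample with Dox lay below every untreated one, and every wild-type sample with Dox lay above. The YAPCA difference was -0.965 ± 0.117 (SE; limma, adjusted p = 0.00506) and the wild-type difference 0.592 ± 0.156, which did not pass (limma, adjusted p = 0.164), so that the effects differed by -1.56 score units.

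KEGG's version of the pathway gave -0.783 ± 0.131 in YAPCA cells and 0.482 ± 0.158 in wild-type cells (limma, adjusted p = 0.00848 and 0.235). KEGG's lysosome set scored -0.413, -0.288 and -0.161 in YAPCA cells with Dox, against 0.102, 0.282 and 0.373 in untreated YAPCA cells, and 0.184, 0.342 and 0.277 in wild-type cells with Dox, against 0.00916, -0.176 and -0.429 in untreated wild-type cells. Its effects were -0.540 and 0.466, again with no overlap in either genotype. The YAPCA call of the lysosome set (limma, adjusted p = 0.0206) was lost without Dox replicate 1 or 2 or untreated replicate 2 or 3. Of 22 sets on lysosomes and glycosaminoglycans 0 rose and 4 fell in YAPCA cells, with a median of -0.208, against a wild-type median of 0.205.

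Among 15 glycosaminoglycan-degrading enzymes tested in YAPCA cells, listed after the scores were seen, 0 rose and 6 fell, with a median log2 change of -0.12. Hyal1, a lysosomal hyaluronidase, had 87.9, 63.9 and 69.7 normalised read counts with Dox, against 117.6, 112.0 and 139.3 untreated, a log2 change of -0.74 ± 0.15 (SE; limma, adjusted p = 0.00127) with no overlap. The other 5 changed less: the sulfatases Ids, Galns and Arsb and the glycosidases Gusb and Glb1 fell by 0.11 to 0.17 on the log2 scale. Of 12 lysosomal genes 0 rose and 7 fell. Lamp2, a protein of the lysosomal membrane, had 7696, 7640 and 8173 normalised read counts with Dox, against 8633, 8609 and 8893 untreated (log2 change -0.15 ± 0.029; limma, adjusted p = 0.000961), and the protease Ctsd fell by 0.14.

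Matrix sets fell together in YAPCA cells. Of 28 sets on extracellular matrix and collagen 0 rose and 11 fell, with a median of -0.422, and in 21 the Dox samples all lay below the untreated ones. The wild-type median was -0.163, with 19 of 28 negative but none of the groups in that direction free of overlap. KEGG's set for the interaction of matrix with its receptors scored -0.334, -0.438 and -0.126 in YAPCA cells with Dox, against 0.385, 0.318 and 0.216 in untreated YAPCA cells, a difference of -0.606 ± 0.116 (SE; limma, adjusted p = 0.0141), a call lost without Dox replicate 1 or 2. Its wild-type effect was -0.384 ± 0.188, with overlapping groups. Matrix proteoglycans fell by 0.552, elastic fibre formation by 0.508, collagen degradation by 0.495 and the core matrisome, the list of structural matrix proteins, by 0.464, with calls kept in 4, 2, 2 and 1 of the 6 omissions.

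Among 14 matrix genes tested in YAPCA cells 1 rose and 9 fell. The 3 chains of collagen VI, which forms beaded filaments around cells, moved alike. Col6a1 had 12020, 11990 and 13270 normalised read counts with Dox, against 17230, 16300 and 17640 untreated, a log2 change of -0.46 ± 0.037 (SE; limma, adjusted p = 1.50e-07), and Col6a2 and Col6a3 changed by -0.47 and -0.32. Their groups did not overlap. Fibrillar Col3a1 fell by 0.25, while Col5a2, a chain of the collagen V that nucleates fibrils, rose by 0.23.

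Bone sets pointed the same way without passing. All 6 sets on bone and osteoblasts had a negative effect in YAPCA cells, from -0.375 to -0.127 with a median of -0.277, none passed, and 4 had no overlap. The wild-type median was -0.0654, with 5 of 6 negative. Of 10 bone genes tested 0 rose and 5 fell. Sp7, the osteoblast transcription factor osterix, had 155.5, 170.6 and 159.7 normalised read counts with Dox, against 337.5, 314.7 and 329.3 untreated, a log2 change of -1.01 ± 0.083 (SE; limma, adjusted p = 1.55e-07). Col1a1, the main collagen chain of bone, changed by -0.47, the phosphatase gene Alpl by -0.41 and Spp1, osteopontin, by -0.31. Runx2, the earlier osteoblast regulator, changed by -0.07 and did not pass (limma, adjusted p = 0.268).

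Signatures of RHOA and its kinase ROCK, through which cells build contractile actin, were among the largest movers. The set named for genes raised for good in cells transformed by RHOA scored -0.375, -0.514 and -0.327 in YAPCA cells with Dox, against 0.366, 0.484 and 0.473 in untreated YAPCA cells. It scored 0.336, 0.473 and 0.324 in wild-type cells with Dox, against 0.205, -0.464 and -0.570 in untreated wild-type cells. Neither genotype's groups overlapped, and the wild-type untreated samples were spread widely, replicate 1 being near the Dox samples. The effects were -0.846 ± 0.105 in YAPCA cells and 0.654 ± 0.191 in wild-type cells (limma, adjusted p = 0.00506 and 0.186). Its counterpart for genes lowered for good rose by 0.813 ± 0.111 in YAPCA cells (limma, adjusted p = 0.00506), against -0.259 ± 0.206 in wild-type cells. The UP list named for ROCK signalling not via RHOA gave -0.825 ± 0.126 in YAPCA cells and 0.570 ± 0.174 in wild-type cells (limma, adjusted p = 0.00709 and 0.202). Its groups overlapped in neither genotype. That name does not say whether ROCK was active or blocked in its study. The name of a signature gives the direction in its own study: here the UP lists were lower with Dox in YAPCA cells and the DN list was higher.

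Hypoxia and glycolysis sets split. Of 50 sets 5 rose and 6 fell in YAPCA cells, with a median of 0.0196, against 0.114 in wild-type cells. The hypoxia set of Kim scored -0.277, -0.274 and -0.394 in YAPCA cells with Dox, against 0.301, 0.392 and 0.321 in untreated YAPCA cells, a fall of 0.653 with no overlap (limma, adjusted p = 0.00715). KEGG's glycolysis set fell by 0.555, whereas sets named for HIF1A, of Elvidge and of Gross, rose by 0.593 and 0.503. These 3 calls were kept in 2, 4 and 3 of the 6 omissions, each being lost without Dox replicate 1 or 2. Whether the HIF1A lists hold genes that HIF1A raises or lowers is not given here. Their rise therefore cannot be read as more or less HIF1A activity. Of 14 glycolysis and hypoxia genes tested 1 rose and 8 fell. Ddit4, an mTORC1 inhibitor induced by low oxygen and other stress, had 340.5, 347.3 and 384.5 normalised read counts with Dox, against 1042, 959.0 and 1017 untreated (log2 change -1.49 ± 0.060; limma, adjusted p = 1.11e-10). Vegfa, the vascular growth factor, fell by 0.45, and the hexokinase gene Hk2 rose by 0.19.

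TGF-beta and BMP2 signatures each held a pair that moved apart. Karlsson's genes raised by TGFB1 scored 0.518, 0.389 and 0.318 in YAPCA cells with Dox, against -0.439, -0.299 and -0.462 in untreated YAPCA cells, a rise of 0.808 ± 0.108 (SE; limma, adjusted p = 0.00506). Their wild-type effect was 0.0159 ± 0.238, where untreated replicate 3 stood at 0.591 and the other untreated replicates at -0.387 and -0.402. Karlsson's genes lowered by TGFB1 fell by 0.504 ± 0.125 in YAPCA cells (limma, adjusted p = 0.0313), a call kept in 1 of the 6 omissions, that of Dox replicate 3. Other TGF-beta sets fell: 2 clusters and the early response of Verrecchia, whose genes are largely matrix genes of fibroblasts, by 0.750, 0.492 and 0.638, with calls kept in 6, 2 and 4 of the 6 omissions. In all 1 of 36 TGF-beta sets rose and 5 fell. Of 12 TGF-beta genes 3 rose and 5 fell, with Tgfbi, a matrix protein, falling by 0.73 on the log2 scale.

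Of Lee's BMP2 target lists, DN rose by 0.744 ± 0.101 and UP fell by 0.608 ± 0.106 in YAPCA cells (limma, adjusted p = 0.00506 and 0.0102). Their names do not say whether BMP2 was added or removed in that study. The moves therefore cannot be read as more or less BMP2 signalling. The call for the UP list was lost without Dox replicate 1 or 2. Wild-type effects were -0.103 and 0.176. In all 1 of 17 BMP and SMAD sets rose, 1 fell and 15 did not pass, and of 15 BMP and SMAD genes tested 5 rose and 6 fell. Bmp4, a secreted BMP ligand, had 64.2, 66.9 and 46.1 normalised read counts in YAPCA cells with Dox, against 9.60, 12.03 and 21.1 in untreated YAPCA cells, a log2 change of 2.03 ± 0.27 (SE; limma, adjusted p = 3.87e-05). In contrast Id3, a target of BMP and SMAD, changed by -0.33, and Smad7, an inhibitor of the pathway, by 0.25, and both passed. Of 47 WNT sets 0 rose and 5 fell in YAPCA cells, with a median of -0.124, against 0.111 in wild-type cells. Of the 5, 3 are versions of Mebarki's WNT signature of liver progenitors, which share genes, and each of the 3 calls was kept in 2 of the 6 omissions.

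Of the 6 sets that name YAP or the Hippo pathway 1 rose and 0 fell in YAPCA cells. Reactome's Hippo signalling set, made of the kinases, their adaptors and YAP itself, scored 0.237, 0.0871 and 0.386 in YAPCA cells with Dox, against -0.104, -0.395 and -0.190 in untreated YAPCA cells. It scored -0.598, 0.0183 and -0.186 in wild-type cells with Dox, against 0.135, 0.0815 and 0.4997 in untreated wild-type cells. The effects, 0.466 ± 0.122 and -0.494 ± 0.182, were opposite and free of overlap (limma, adjusted p = 0.0375 and 0.280), and the YAPCA call was lost without any 1 of the 6 samples. The other 5 Hippo sets did not pass and had effects between -0.0541 and 0.175 in YAPCA cells, and 5 of the 6 were negative in wild-type cells. The WikiPathways set on YAP1 and matrix downstream of miR-509-3p fell by 0.665 ± 0.118 in YAPCA cells (limma, adjusted p = 0.0109), a call lost without Dox replicate 1 or 2. It is listed with the matrix sets, which its genes largely are.

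Among single genes, of 12 YAP targets and Hippo genes tested in YAPCA cells 11 rose and 1 fell, with a median log2 change of 0.45. Ctgf, a secreted matricellular protein, had 69990, 68740 and 62700 normalised read counts with Dox, against 41520, 41900 and 33650 untreated. Lats2, the Hippo kinase that YAP itself induces, had 4757, 4803 and 4785 with Dox, against 2920, 2993 and 2907 untreated, a log2 change of 0.70 ± 0.028 (SE; limma, adjusted p = 1.11e-10). Neither gene's groups overlapped.

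Signatures of the EGF receptor and its relatives were called in YAPCA cells at shares near those of all sets. Of 110 sets 4 rose and 6 fell, beside 5.09% rising and 4.81% falling among all 4320. Their median was 0.0662, against -0.00103 in wild-type cells. The signature of metastasis by ERBB2 isoform 3 of Pedersen rose in YAPCA cells and was the lowest of all shared sets in wild-type cells. It scored 0.373, 0.0729 and 0.333 in YAPCA cells with Dox, against -0.354, -0.287 and -0.180 in untreated YAPCA cells, and -0.0454, -0.484 and -0.613 in wild-type cells with Dox, against 0.472, 0.406 and 0.435 in untreated wild-type cells. Its effects were 0.533 ± 0.117 and -0.819 ± 0.162 (limma, adjusted p = 0.0212 and 0.155), and the YAPCA call was lost without Dox replicate 1 or untreated replicate 1 or 2. The companion signature of isoform 6 had the same sign in both genotypes, -0.625 ± 0.105 in YAPCA cells and -0.492 ± 0.157 in wild-type cells. Of 12 EGF receptor and MAPK genes tested in YAPCA cells 9 rose and 0 fell, with a median log2 change of 0.27, among them the ligands Ereg (1.22) and Hbegf (0.88) and the feedback inhibitors Spry1 (1.27) and Spry2 (0.51).

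**Figure D3:**
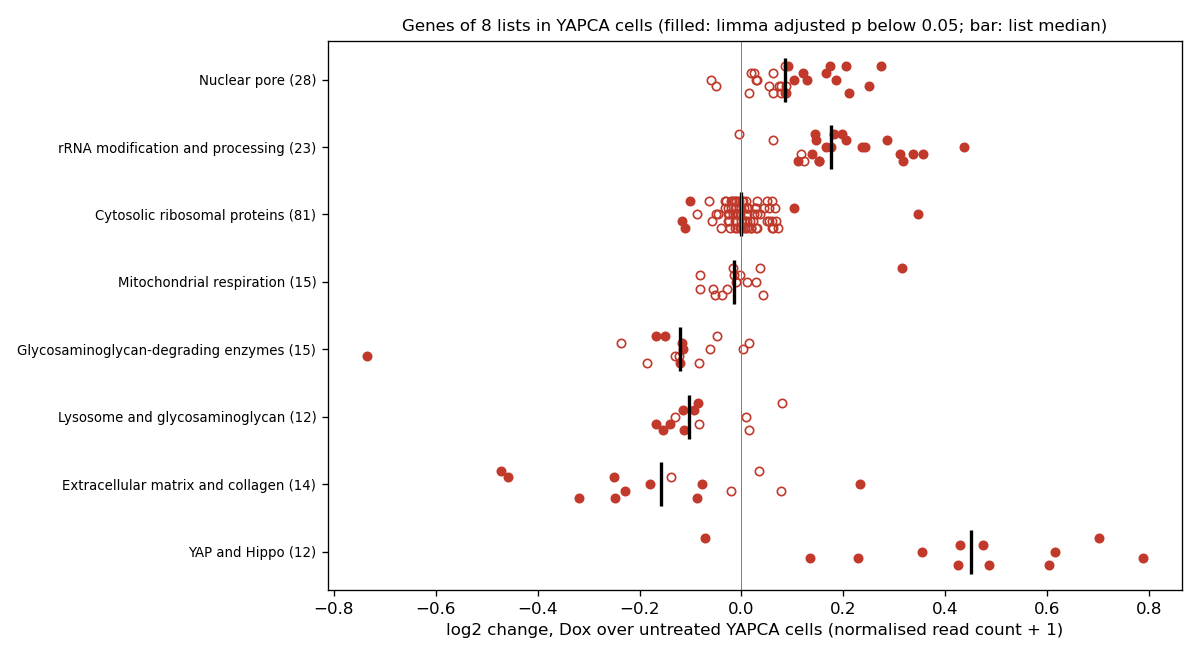
Log2 change of each tested gene of 8 lists in YAPCA cells (x axis, Dox over untreated, normalised read count + 1), by list (y axis, number of genes in brackets). Filled points passed limma at an adjusted p below 0.05 and bars mark list medians, which lie at 0.45 for YAP and Hippo genes, 0.18 for rRNA modification genes, -0.0002 for cytosolic ribosomal proteins and -0.12 for glycosaminoglycan-degrading enzymes.

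In wild-type cells the highest Dox effects belonged to sets of ribosomal proteins and mitochondrial respiration, though none passed. KEGG's ribosome set scored 0.507, 0.0931 and 0.736 in wild-type cells with Dox, against -0.0111, -0.517 and -0.635 in untreated wild-type cells, a difference of 0.833 ± 0.200 (limma, adjusted p = 0.155). The groups did not overlap, but Dox replicate 2 and untreated replicate 1 came close to each other. The WikiPathways electron transport chain set scored 0.456, 0.0362 and 0.627 in wild-type cells with Dox, against -0.311, -0.374 and -0.554 in untreated wild-type cells, a difference of 0.786 ± 0.168 (limma, adjusted p = 0.155). Dox replicate 2 was again the lowest of its group.

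Of 29 sets on mitochondrial respiration, 26 had a positive wild-type effect and 16 lay above the untreated samples with no overlap, with a median of 0.503. The same 29 sets had a median of -0.0393 in YAPCA cells, where 1 rose and 1 fell. Of the 19 sets on ribosomes, rRNA and translation 9 lay above without overlap in wild-type cells, with a median of 0.294, against 0.150 in YAPCA cells. Of 14 proteasome and ubiquitin sets 13 were positive in each genotype, with medians of 0.182 in YAPCA cells and 0.324 in wild-type cells, and 1 rose in YAPCA cells.

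Some ribosomal protein genes are among the wild-type genes that the authors list. The authors' deposited table lists 98 genes, of which 23 rose and 75 fell with Dox. Its highest adjusted p is 0.0494 (DESeq2), so the list holds only genes past 0.05. Of 84 genes of cytosolic ribosomal proteins or their fusions with ubiquitin-like proteins looked for, 8 are in the list, and all 8 rose. The rest have no wild-type value here. Gene span moved with direction in that list: the 22 rising genes with a known span had a median of 3424 bp and the 72 falling genes 39512 bp, by the RefSeq gene table used for names, a property looked at after the values were seen. The part of gene span in the ribosomal result was not tested. Rpl41 had 13190, 12590 and 13891 normalised read counts in wild-type cells with Dox, against 12131, 11829 and 11342 untreated, a log2 change of 0.17 in the authors' deposited table (DESeq2, adjusted p = 0.00216). Rplp2, of the ribosomal stalk, had a log2 change of 0.17 there as well, and the smallest of the 8, Rpl7, had 0.09. In YAPCA cells, tested here with limma, 1 of the 8 passed, Rpl41 with a log2 change of 0.10 (adjusted p = 0.0250), and Rplp2 changed by -0.09 without passing. None of the 15 mitochondrial genes looked for is in the authors' list, and in YAPCA cells 1 of 15 rose, Idh3a of the citric acid cycle, and 0 fell.

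Sets of adhesion to the basement membrane were among the lowest in wild-type cells, though none passed. Reactome's laminin interactions scored -0.350, -0.0707 and -0.588 in wild-type cells with Dox, against 0.306, 0.486 and 0.209 in untreated wild-type cells, a difference of -0.670 ± 0.161 (limma, adjusted p = 0.155) with no overlap. In YAPCA cells the difference was -0.146 ± 0.130 and the groups overlapped. The PID set for integrins containing the beta-1 chain had effects of -0.345 ± 0.123 in YAPCA cells and -0.578 ± 0.165 in wild-type cells, neither of which passed, with no overlap in either genotype. In wild-type cells type II diabetes signalling (-0.693) and VEGFR2-mediated proliferation (-0.627) were among the lowest sets as well.

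Effects of the same direction with no overlap in either genotype were seen in fewer sets than opposite ones. Of the 428 that passed in YAPCA cells, 7 had wild-type groups with no overlap in the same direction, against 48 in the opposite direction. Of the 208 that fell in YAPCA cells, 32 lay above without overlap in wild-type cells and 2 below. Of the 220 that rose, 16 lay below and 5 above. Among all wild-type sets 12.6% lay above without overlap and 4.18% below. Whether the counts differ from these shares was not tested. Reactome's rRNA processing set, which unlike the rRNA modification set contains the ribosomal proteins, scored 0.418, 0.376 and 0.103 in YAPCA cells with Dox, against -0.562, -0.104 and -0.0820 in untreated YAPCA cells. In wild-type cells it scored 0.148, 0.0197 and 0.514 with Dox, against -0.264, -0.374 and -0.0731 untreated. Effects were 0.548 ± 0.149 and 0.464 ± 0.162 (limma, adjusted p = 0.0418 and 0.266), and the groups overlapped in neither genotype. The YAPCA call was lost without Dox replicate 1 or 2 or untreated replicate 1 or 2. The BioCarta set of the vitamin D receptor had effects of -0.438 in YAPCA cells and -0.481 in wild-type cells, neither past the threshold.

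Grouped by name, 1135 of the shared sets fell into 32 themes, and in 19 themes the median effect had opposite signs in the 2 genotypes. Over all shared sets 47.2% of effects were positive in YAPCA cells and 61.2% in wild-type cells. Whether the count of 19 differs from what these shares give was not tested. It includes medians near 0, such as EGF receptor, ERBB and MAPK (0.0662 against -0.00103), and a cartilage theme of 1 set. The largest gaps in which the YAPCA median was the higher were those of nuclear pores (0.853 in YAPCA cells against -0.0721 in wild-type cells), splicing (0.387 against -0.0123) and YAP and Hippo (0.0673 against -0.247). Those in which it was the lower included mitochondrial respiration (-0.0393 against 0.503), lysosome and glycosaminoglycan (-0.208 against 0.205) and fat cell and lipid storage (-0.168 against 0.0979). Cholesterol and fatty acid synthesis, with -0.212 in YAPCA cells and -0.0153 in wild-type cells, shows how a theme can hide its members, since its cholesterol biosynthesis set rose. The sample medians over all sets ranged from -0.0593 to 0.0514 in YAPCA cells and from -0.0741 to 0.100 in wild-type cells, and after each sample was centred on its median 16 themes had opposite signs.

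**Figure D4:**
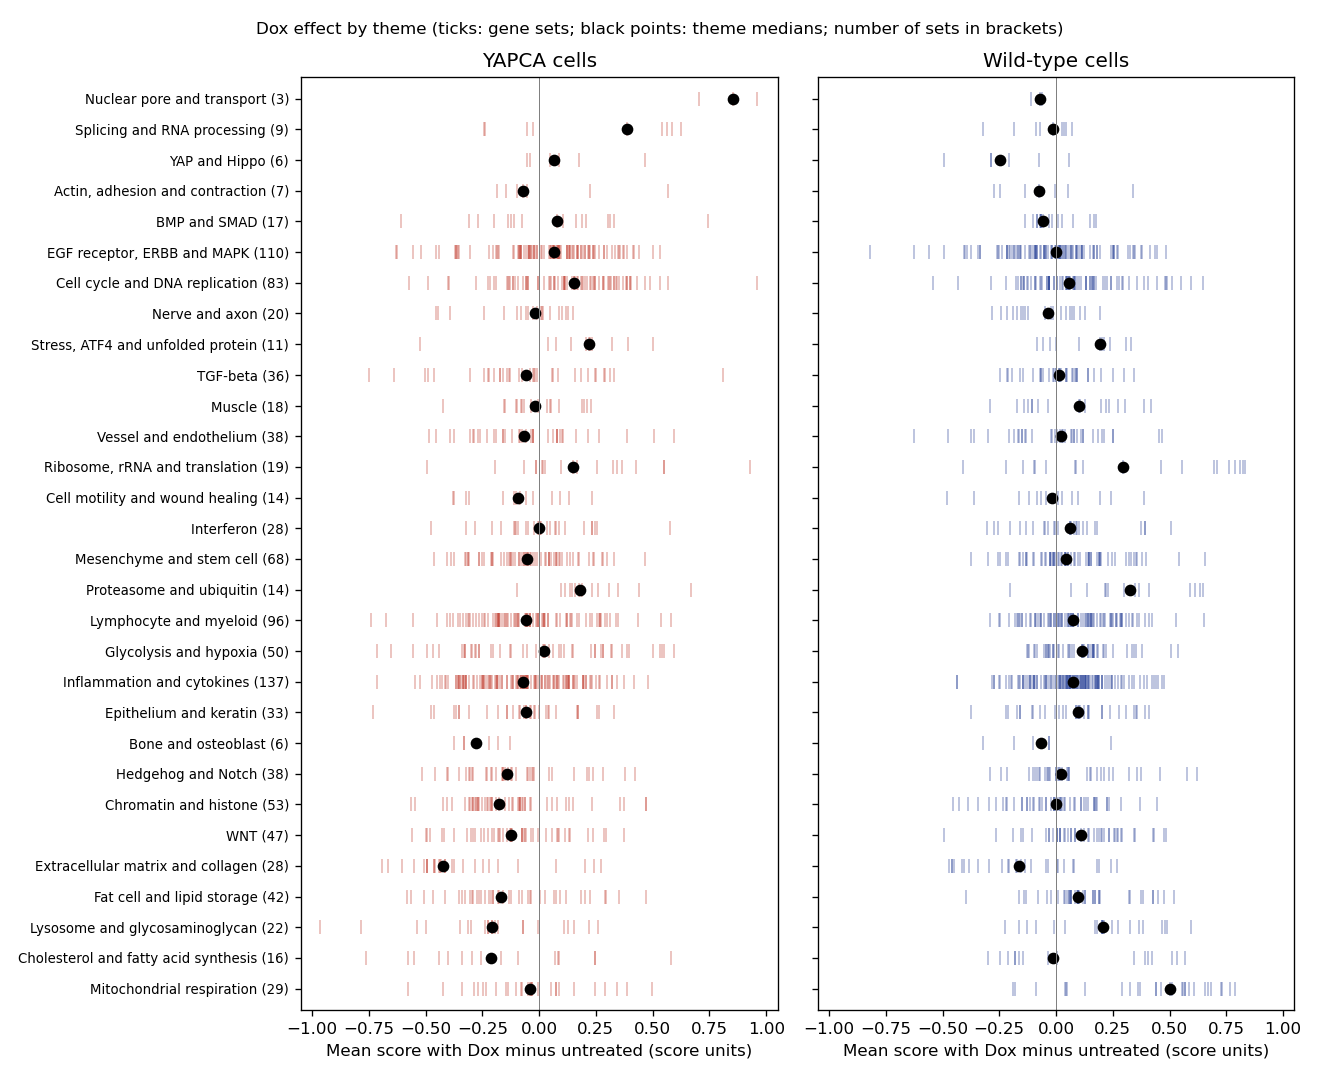
Dox effect (x axis, mean score with Dox minus untreated, score units) of the sets of the themes plotted, each with at least 3 sets, in YAPCA cells (left) and wild-type cells (right). Ticks are sets and black points theme medians, ordered by the median difference between genotypes: nuclear pore and splicing sets stand to the right in YAPCA cells at the top, and mitochondrial respiration stands to the right in wild-type cells at the bottom.

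The authors also deposited an FDR for each set, which by its column header came from a resampling test of unstated detail. In the authors' deposited table for YAPCA cells 552 sets had an FDR below 0.05 (12.8%), 296 up and 256 down, and 263 of them also passed limma. In the authors' deposited table for wild-type cells 523 did (12.1%), 418 up and 105 down, against 0 by limma. The lists shared 118 sets, 21.4% of the YAPCA list and 22.6% of the wild-type list, of which 51 had the same direction and 67 the opposite one. Of those 67 sets 45 were lower with Dox in YAPCA cells and higher with Dox in wild-type cells.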

How the data were processed

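RNA-seq of primary mouse periosteal cells was made from column-purified, polyadenylated RNA, per the labels' protocols. Per the submitters' processing notes, featureCounts, HISAT2, DESeq2 and Picard were used with the mm10 build, and no versions are stated. The authors deposited a gene set score per sample, the group difference and its p-value and FDR for each genotype; no source used here names the scoring tool. The per-gene signal is a normalised read count, which the authors scaled with a single factor for each library: every deposited YAPCA column holds multiples of a fixed value, and 100% of its values gave whole reads to within 0.01. For wild-type cells the authors deposited 98 genes with log2 changes and adjusted p-values, per the file headers.

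Scores were tested per table with limma 3.58.1 in R 4.3.3 (two-sided, no trend, Benjamini-Hochberg over all sets of the table, threshold 0.05). YAPCA genes were tested with limma with an intensity trend on log2(normalised read count + 1) for 13477 genes whose mean was 10 or more; low genes' changes are understated on that scale. edgeR 4.0.16 and DESeq2 1.42.0 on recovered reads were alternatives. The planned test of the difference between genotypes became an alternative once the tables proved to be scored separately. The scripts were tested on simulated data. Columns of per-sample values without a sample numbered 0.

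The members, themes and lists were chosen with earlier results of these data known. Named sets are the 10 highest and 10 lowest differences that passed in YAPCA cells, the 5 highest and 5 lowest YAPCA effects, and up to 3 sets per theme. Mismatched names were removed from themes, and further sets that passed, the wild-type extremes, sets without overlap in both genotypes and 5 gene lists (pores, rRNA modification, glycosaminoglycan enzymes, ribosomal proteins, YAP) were added after values were seen. Same-numbered replicates were not treated as pairs. A few items that the rule names are not reported here. Sequences are not printed, since the members are gene sets.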

Additional observations from a re-analysis of the deposited data

Results flagged for a closer look

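In 20 named sets every YAPCA sample with Dox lay on one side of the untreated samples and every wild-type sample with Dox on the other side. Because the tables were scored separately, the difference between the genotypes was not tested on a common scale. A limma test over all 12 samples that assumes such a scale called 19 of the 20. The 20 were picked from the same scores for having no overlap and opposite directions. The 19 calls therefore largely follow from that choice and are not separate support. The values below are the YAPCA effect minus the wild-type effect in score units. Lower in YAPCA cells were glycosaminoglycan degradation (-1.557 in WikiPathways and -1.265 in KEGG) and the genes raised for good by RHOA (-1.5). So were the UP list for ROCK signalling not via RHOA (-1.395), the SMARCA4 targets of Medina (-1.211) and peroxisomal lipid metabolism (-1.197). Neutrophil granule constituents (-1.16), the plasma cell set of Abraham (-1.117), adaptation to hypoxia (-1.033) and the lysosome (-1.006) were lower too. The same held for the ERBB2 tumour set of Landis (-0.9566), mitochondrial fatty acid oxidation (-0.9056) and the epithelial to mesenchymal set of Jechlinger (-0.7293). Higher in YAPCA cells were metastasis by ERBB2 isoform 3 (1.352), the lymphatic vessel set of Clasper (1.096), B-WICH and rRNA expression (0.9607), Hippo signalling (0.96), SHC1 events in ERBB2 signalling (0.9494), the CTNNB1 oncogenic signature of Bild (0.8702) and WikiPathways mRNA processing (0.8646).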

How the results depend on the processing

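The count of 428 sets past the threshold in YAPCA cells became 737 with a replicate block, 57 at an adjusted p below 0.01, 120 with a spread shared by both tables (added after seeing the data), and 66 to 473 when each sample was left out in turn. It was 498 with scores centred on sample medians, 435 with a robust trend and 552 by the authors' deposited FDR. The replicate block kept 427 of the 428, and the shared spread and the stricter threshold kept 120 and 57. In wild-type cells the count of 0 became 33 with the replicate block and 523 by the authors' deposited FDR, and stayed at 0 in every omission. Replicate numbers were not shown to pair the samples: same-numbered Dox and untreated YAPCA samples deviated together at 0.0922, 0.315 and 0.278, each sample correlating best with its own number, and wild-type samples at 0.225, -0.207 and 0.0454, where they did not. The count of 132 sets that moved in opposite directions without overlap was 81 among sets with above-median scores, where fewer sets were counted, 128 when centred, and 150 to 251 when a sample was left out. A limma test of the difference over all 12 samples, which assumes that the tables share a scale, called 109 sets, 28 higher and 81 lower in YAPCA cells. The count of 19 themes with opposite medians became 16 when centred and 14 to 24 when a sample was left out. Gene values in YAPCA cells gave 3757 genes past the threshold, 3824 with edgeR, 2843 with DESeq2, 4350 with the block and 2876 to 3582 in the omissions. Of 61 named sets past the threshold in YAPCA cells, 24 passed in all 6 omissions, and the cause of the other losses was not tested. With 3 samples a group, and unknown wild-type depth, small shifts in score could not be resolved.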

Other observations

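Peroxisomal lipid metabolism, which shortens very long fatty acids, fell by 0.614 in YAPCA cells (limma, adjusted p = 0.0321), against a wild-type effect of 0.583 that did not pass. The YAPCA call was lost without Dox replicate 1 or 2 or untreated replicate 2 or 3. Mitochondrial fatty acid oxidation had effects of -0.338 and 0.567, neither past the threshold. Of 42 fat cell and lipid storage sets 1 rose and 4 fell in YAPCA cells, and 35 of 42 had a positive wild-type effect. Endogenous sterols fell by 0.764 in YAPCA cells. Among 13 inflammation and cytokine genes 8 rose and 5 fell in YAPCA cells, with Ccl2, which draws in monocytes, at a log2 change of 0.67, Csf1, the macrophage growth factor, at 0.50 and Il1rn, which blocks the interleukin-1 receptor, at -1.01, while of 137 sets on inflammation 1 rose and 4 fell.

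Of 730 signatures with a list of raised and a list of lowered genes, 59.0% had effects of opposite sign in YAPCA cells and 48.4% in wild-type cells. In 12 pairs both lists passed in YAPCA cells, and in 8 of these they moved in opposite directions. By collection, 10.5% of 903 Reactome sets rose and 4.10% fell in YAPCA cells, against 2.26% and 6.27% of 399 WikiPathways sets.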
